A study of Mus musculus with 4 samples.

Results

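The genes of the piRNA pathway and the chromatoid body were chosen by name, 10 of the 17924 gene symbols measured, and all 10 were tested. They are the PIWI genes Piwil1 and Piwil2, the RNA helicase genes Ddx4, Mov10l1 and Tdrd9, the Tudor domain genes Tdrd1, Tdrd5, Tdrd6 and Tdrd7, and Mael. Their levels were read in testis RNA of male C57BL/6 mice fed a normal diet for 18 weeks. Wild-type mice (WT) gave 2 samples and mice without Tas1r3, the subunit shared by the sweet and umami taste receptors (KO), gave 2 samples. Neither the age at sampling, nor how the allele was made, nor whether a genotype's samples came from separate animals is given in the labels, so p-values measure only the spread between these samples, which may be technical. The comparison asks whether testicular transcript levels of the germline small RNA machinery differ between these genotypes.

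PIWI-interacting RNAs (piRNAs) are small RNAs of germ cells that guide PIWI proteins to transposon transcripts and other RNAs. Long precursors are unwound, cut and trimmed in granules beside the mitochondria, and in mouse a second large wave of piRNAs appears in pachytene spermatocytes under the transcription factor A-MYB. In round spermatids much of the same protein set gathers in the chromatoid body, a single perinuclear granule of RNA and protein, where Tudor domain proteins hold methylated PIWI proteins.

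Levels are given in CPM, reads scaled to the total assigned in a sample, summed over the transcript rows of a gene. The step between low values gave estimated depths of 1719395 and 1807664 reads in WT samples 1 and 2, and of 748615 and 597943 reads in KO samples 1 and 2, so depth cannot be told apart from genotype. Each of the 10 genes had at least 36 estimated reads in every sample. Tas1r3 itself was at 13.8 and 20.5 CPM in WT (about 24 and 37 reads), against 1.34 CPM in KO sample 1 (1 read) and 0 in KO sample 2, which allows up to 5.02 CPM (3 reads). With all samples the log2 fold change was -3.54 and missed the threshold over all genes (limma adjusted p = 0.942). It passed with the replicate number as a block (limma adjusted p = 0.000302). The other alternatives that kept all samples gave limma adjusted p of 0.269 or more. The log2 fold change was -3.812 and -3.275 without WT samples 1 and 2, and -4.155 and -2.932 without KO samples 1 and 2. Defining markers of testis were high in every sample, with 8 elongating spermatid markers summing to between 29767 and 40221 CPM. The epididymal gene Crisp1 was at 40.7 CPM in WT sample 1 and at 0 in the other samples. Rnase10, from the same tissue, showed the reverse. Its lowest value was that of WT sample 1 (0.0045 CPM), below WT sample 2 (3.75), KO sample 1 (3.88) and KO sample 2 (3.46). Both KO values were under the level of 3 reads (4.01 CPM for KO sample 1, 5.02 for KO sample 2). The part of Crisp1 and Rnase10 in the results was not tested.

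No difference between genotypes in any of the 10 genes passed the test. In limma with Benjamini-Hochberg adjustment over 17744 tested genes, 0 of 10 passed, where 1 of all tested genes did (0.00564%). At an unadjusted p under 0.05 there were 0 of 10, against 4.69% of all tested genes, and a fit with precision weights also called 0. Of the 10 genes, 6 were higher and 4 lower in KO, with a median log2 fold change of 0.05 (range -0.27 to 0.18), beside -0.05 over all tested genes. The 95% interval of each fold change lay within 2-fold, the lowest bound being 0.572 for Mov10l1 and the highest 1.47 for Tdrd1. Without WT sample 1, 0 of 10 were called (0.00582% of all tested genes higher and 0.0175% lower), and without WT sample 2 also 0 (0.029% and 0.0174%). Without KO sample 1, 1 of 10 was called lower and 0 higher, where 5.89% and 2.48% of all tested genes were. Without KO sample 2, 1 of 10 was called higher and 0 lower, where 0.834% and 2.91% were. A miss of the threshold does not show equal levels. With 2 samples per genotype large differences could miss it too. Tas1r3, at lower levels than the 10 genes, did so at a log2 fold change of -3.54. Summed over the 10 genes, the level was 2972 and 2983 CPM in WT against 3370 and 2820 CPM in KO, so the KO samples lay on either side of both WT samples.

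**Figure D1:**
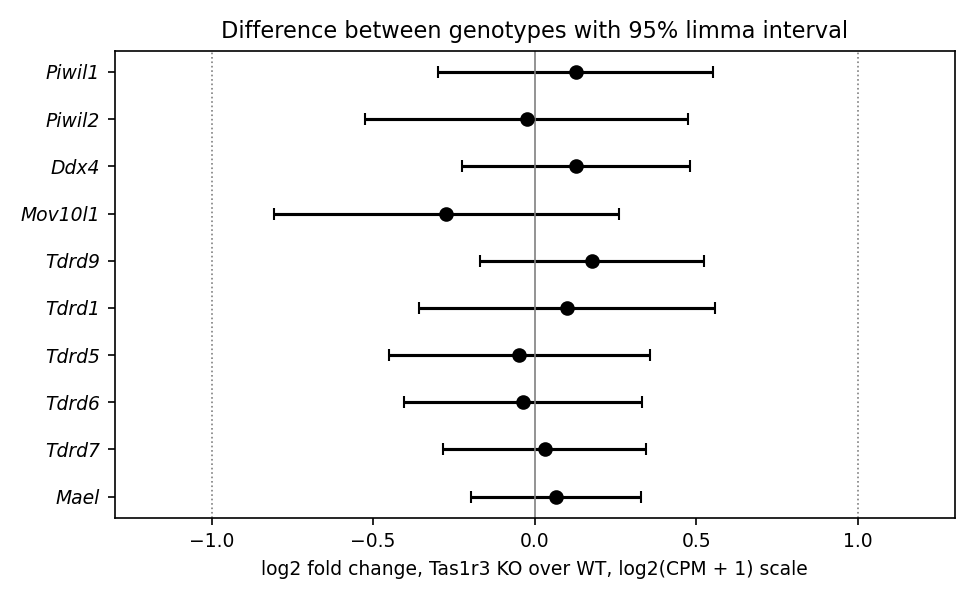
Each point is the log2 fold change of a gene, Tas1r3 KO relative to WT after adding 1 CPM (horizontal axis), and each bar its 95% limma interval (n = 2 per genotype). The dotted lines mark a 2-fold change in either direction, and all 10 intervals cross 0 and end inside them.

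A-MYB, the product of Mybl1, is known in mouse to activate piRNA precursors and genes of the pathway at the pachytene stage, so the promoters of the 10 genes were read for a MYB type motif. RefSeq promoter windows of build GRCm38.p6 (250 bases before to 50 after a start) were matched for 8 of 10 genes, with 12 windows, and Piwil2 and Tdrd6 were not matched. This build is older than that of the expression tables and was used for sequence only. The letters AACNGNC on either strand were found in 7 of these 8 genes, against 36.0% of 27025 genes with a window, and in 9 of 12 windows against 32.8% of all windows. The letters CACGTG, a palindromic E-box chosen after the promoters had been read, were found in 6 of 8 genes against 8.09% of all genes. Because the motif was picked from these same windows, the higher share carries no weight as evidence. No match overlapped one of the other motif. Windows of several of these genes were rich in G and C (67.7% for Piwil1 and 65.0% for Mael, beside a median of 52.7% over all windows). Matches are descriptions and not binding sites, and a window without one says nothing of the factor. The 250 bases before the start are shown for 4 genes whose window holds both motifs and for Ddx4, which holds the E-box alone; capitals mark the motifs and each sequence runs from the far end to the base before the start.
Piwil1, chr5:128735996-128736245, plus strand: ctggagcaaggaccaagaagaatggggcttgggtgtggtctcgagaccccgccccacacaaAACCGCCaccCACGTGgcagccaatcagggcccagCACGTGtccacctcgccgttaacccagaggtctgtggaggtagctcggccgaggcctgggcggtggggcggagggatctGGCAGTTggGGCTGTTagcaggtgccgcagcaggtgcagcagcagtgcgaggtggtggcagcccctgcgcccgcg
Mael, chr1:166238745-166238994, minus strand: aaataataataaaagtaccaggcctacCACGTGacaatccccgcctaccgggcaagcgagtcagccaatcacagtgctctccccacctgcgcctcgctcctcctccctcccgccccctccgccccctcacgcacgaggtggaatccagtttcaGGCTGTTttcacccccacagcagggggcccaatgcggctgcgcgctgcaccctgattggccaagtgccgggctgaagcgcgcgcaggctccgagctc
Mov10l1, chr15:88982744-88982993, plus strand: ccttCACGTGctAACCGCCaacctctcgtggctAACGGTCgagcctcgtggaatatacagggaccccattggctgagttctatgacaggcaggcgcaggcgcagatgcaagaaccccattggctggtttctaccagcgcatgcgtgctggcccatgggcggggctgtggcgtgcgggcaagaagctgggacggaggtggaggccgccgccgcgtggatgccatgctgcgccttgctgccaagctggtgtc
Tdrd9, chr12:111971309-111971558, plus strand: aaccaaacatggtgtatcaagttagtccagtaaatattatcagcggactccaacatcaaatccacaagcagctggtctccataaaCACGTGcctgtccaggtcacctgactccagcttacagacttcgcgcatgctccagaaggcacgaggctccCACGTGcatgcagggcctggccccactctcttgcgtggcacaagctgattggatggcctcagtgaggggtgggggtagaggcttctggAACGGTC
Ddx4, chr13:112652311-112652560, minus strand: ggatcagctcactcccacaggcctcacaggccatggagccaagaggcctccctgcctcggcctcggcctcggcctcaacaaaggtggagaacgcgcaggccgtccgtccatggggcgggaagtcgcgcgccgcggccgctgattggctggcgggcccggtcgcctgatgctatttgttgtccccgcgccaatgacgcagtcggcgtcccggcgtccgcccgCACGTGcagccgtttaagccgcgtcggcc
Piwil1 held 3 MYB type matches, of which GGCAGTT at -75 to -69 and GGCTGTT at -66 to -60 from the start lie close together. Tdrd9 held AACGGTC at -7 to -1, the bases just before its start. Mov10l1 held AACCGCC and AACGGTC at -238 to -232 and -217 to -211, and Mael held GGCTGTT at -97 to -91.

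The PIWI genes encode the proteins that carry piRNAs. Piwil1 (chromosome 5, 128813310 to 128832539, plus strand, mm39), whose product MIWI binds pachytene piRNAs and is needed for spermatids to elongate in mouse, measured 331 CPM in WT sample 1 and 375 in WT sample 2, against 462 in KO sample 1 and 321 in KO sample 2 (this order is kept for the genes that follow). KO sample 1 was the highest and KO sample 2 the lowest of the 4. The fold change on the log2 scale was 0.13 (SE 0.18; limma adjusted p = 0.953). Without KO sample 2 Piwil1 was called higher in KO (0.39, limma adjusted p = 0.0389), and without KO sample 1 the value was -0.13 (limma adjusted p = 0.548). Piwil2 (chromosome 14, 70609926 to 70666558, minus strand), whose product MILI acts from fetal germ cells to spermatids, was at 156 and 152 CPM in WT against 191 and 120 CPM in KO. Its WT samples were close together and again lay between the KO samples. The fold change on the log2 scale was -0.02 (SE 0.22; limma adjusted p = 0.994).

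**Figure D2:**
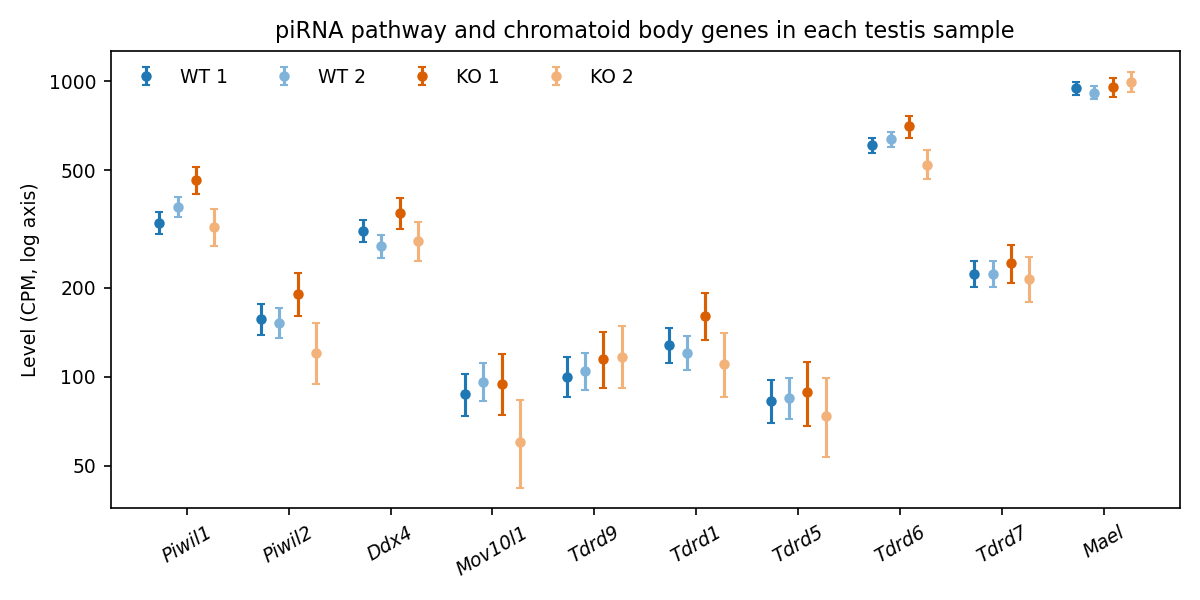
Points are the level of each gene in each of the 4 samples (vertical axis, CPM, log axis), with WT in blue and Tas1r3 KO in orange; bars are exact 95% Poisson intervals of the estimated reads and cover counting error only. KO sample 1 is above KO sample 2 in 8 of 10 genes, and the intervals of the KO samples are apart for Piwil1, Piwil2 and Tdrd6. The share of all tested genes with KO intervals apart was not computed.

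Of the RNA helicase genes, Ddx4 (chromosome 13, 112734867 to 112788845, minus strand) encodes the mouse Vasa protein, a germ cell marker of the chromatoid body. It was at 312 and 276 CPM in WT against 358 and 288 CPM in KO, and the genotypes overlapped. The log2 fold change was 0.13 (SE 0.15). Tdrd9 (chromosome 12, 111937993 to 112035289, plus strand), a helicase with a Tudor domain that takes part in transposon silencing in fetal germ cells, was at 99.8 and 104.8 CPM in WT against 114.8 and 116.5 CPM in KO. It was one of 2 genes in which both KO samples were above both WT samples, with means of 102 and 116 CPM, and it had a log2 fold change of 0.18 (SE 0.15, limma adjusted p = 0.942). Mov10l1 (chromosome 15, 88867197 to 88939356, plus strand), which binds piRNA precursors and starts their processing, was at 87.1 and 96.1 CPM in WT against 94.7 and 60.2 CPM in KO. KO sample 2 was the low one, resting on about 36 reads (exact 95% Poisson interval 42.2 to 83.4 CPM, counting error only), while KO sample 1 lay between the WT samples. The fold change on the log2 scale was -0.27 (SE 0.23; limma adjusted p = 0.942). Without KO sample 1 Mov10l1 was called lower in KO (-0.60, limma adjusted p = 0.0181), and without KO sample 2 the value was 0.05 (limma adjusted p = 0.924).

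The Tudor domain genes encode scaffolds that bind methylated arginines of PIWI proteins. Tdrd6 (chromosome 17, 43926226 to 43941191, minus strand), which the chromatoid body needs for its structure in mouse spermatids, was at 607 and 635 CPM in WT against 703 and 521 CPM in KO. Both WT samples lay between the KO samples, whose counting intervals did not overlap (644 to 765 and 466 to 583 CPM). The log2 fold change was -0.04 (SE 0.16). Tdrd7 (chromosome 4, 45965335 to 46034766, plus strand), also of the chromatoid body and on the chromosome that carries Tas1r3, was at 222.8 and 222.9 CPM in WT against 242 and 215 CPM in KO, with a log2 fold change of 0.03 (SE 0.14). Tdrd1 (chromosome 19, 56814641 to 56858445, plus strand), a partner of MILI in the granules beside mitochondria, was at 128 and 120 CPM in WT against 160 and 110 CPM in KO. KO sample 1 was the high one, and the log2 fold change was 0.10 (SE 0.20). Tdrd5 (chromosome 1, 156082866 to 156131177, minus strand), needed in mouse for transposon silencing and for spermatids to develop, was at 82.6 and 84.6 CPM in WT against 88.8 and 73.6 CPM in KO, with a log2 fold change of -0.05 (SE 0.17). In all 4 of these genes the WT values were within the range of the KO values.

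Mael (chromosome 1, 166028954 to 166066314, minus strand) encodes Maelstrom, a protein needed for transposon silencing and for piRNA production in mouse spermatocytes. It was at 946 and 915 CPM in WT against 955 and 994 CPM in KO. Both KO samples were above both WT samples, by a margin smaller than the spread within either genotype, and the log2 fold change came to 0.07 (SE 0.11, limma adjusted p = 0.96). Genotypes that did not overlap were thus found for 2 of 10 genes, Tdrd9 and Mael, both higher in KO, where 15% of all tested genes were higher without overlap and 34.4% were without overlap in either direction.

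Compared per kb of transcript, the genes differed in level by far more than the samples did. Mael stood apart at 592 to 643 CPM per kb over the 4 samples. Ddx4 (97.4 to 126 CPM per kb), Piwil1 (81.4 to 117) and Tdrd6 (74.5 to 100.1) followed, and neighbours among these overlapped in their sample ranges. Tdrd7, at 58.5 to 66.0 CPM per kb, overlapped with none. Below it, Piwil2 (24.4 to 38.7), Tdrd1 (22.1 to 32.2), Tdrd5 (22.3 to 27.7), Tdrd9 (20.7 to 24.2) and Mov10l1 (14.9 to 23.7) formed a series in which each overlapped with the next. All lay above the level per kb of most genes, from the 77.4th percentile for Mov10l1 to the 99.5th for Mael. Within each sample the level per kb of Piwil1 was 2.65 and 3.08 times that of Piwil2 in WT and 3.02 and 3.33 times in KO, and Tdrd6 was at 1.42 and 1.49 times Tdrd7 in WT and at 1.52 and 1.27 times in KO. The ratios of Tdrd6 to Tdrd1 and of Tdrd1 to Tdrd5 also overlapped between genotypes. That of Ddx4 to Mov10l1 did not, at 5.13 and 4.10 in WT against 5.39 and 6.81 in KO. None of these 5 ratios was tested.

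**Figure D3:**
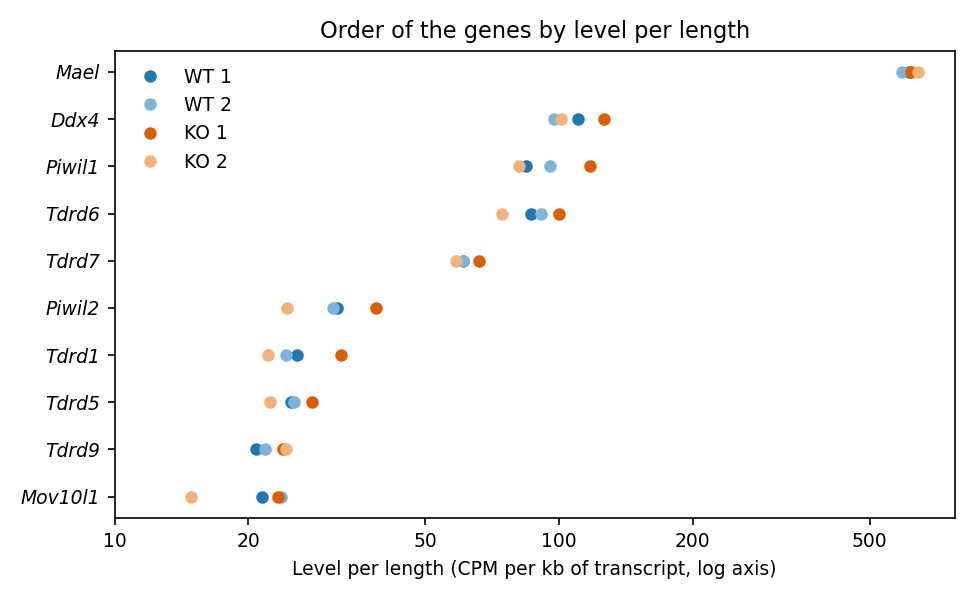
Each row is a gene and each point a sample (WT blue, Tas1r3 KO orange); the horizontal axis is the level per length in CPM per kb of transcript on a log axis. Mael lies at 592 to 643, and the 5 lowest genes lie between 14.9 and 38.7.

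The KO samples differed from each other in these genes more than the WT samples did. The SD was larger in KO than in WT for 9 of 10 genes, with a median ratio of 5.12, where 65.2% of all tested genes and 71.1% of the 2623 genes with at least the lowest mean CPM of the 10 had the larger SD in KO (median ratios 1.67 and 1.99). The KO libraries were also the shallower ones, and the counting intervals of the KO samples were apart for 3 of 10 genes. The share of all tested genes with KO intervals apart was not computed, so this count has no background beside it. KO sample 2 was below KO sample 1 in 8 of 10 genes, with a median log2 ratio of -0.37, beside 50.8% and -0.01 for all tested genes. The median log2 ratio of WT sample 2 to WT sample 1 was 0.02. KO sample 2 was also lower in 9 of 13 other chromatoid body components (median -0.21). The same held for 6 of 8 relatives with somatic or general roles (-0.26) and 3 of 4 nuclear silencing genes (-0.69). It held for 9 of 15 other biogenesis genes (-0.05) and 0 of 3 transcription factors of the pathway. Piwil2, Mov10l1, Tdrd1 and Piwil1 had the lowest ratios of KO sample 2 to KO sample 1 (0.630, 0.636, 0.689 and 0.695), and Tdrd9 and Mael were at 1.02 and 1.04.

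Cell type marker lists differed in how KO sample 2 compared with KO sample 1. Of 8 spermatocyte markers 7 were also lower in KO sample 2 than in KO sample 1 (median log2 ratio -0.32). In WT all 8 were lower in sample 2 than in sample 1 (median -0.11). Their sum was 554 and 491 CPM in WT against 684 and 603 CPM in KO, without overlap. Of 8 Sertoli cell markers 7 were lower in KO sample 2 (median -0.64), with sums of 1266 and 1298 CPM in WT against 1372 and 1124 CPM in KO. Of 8 elongating spermatid markers 5 were higher in KO sample 2 and 3 lower (median 0.30). Their sums were 33760 and 33878 CPM in WT against 29767 and 40221 CPM in KO. Of 8 round spermatid markers 6 were higher in KO sample 2 and 2 lower (median 0.13). The part of these markers in the values above was not tested. Divided by the summed spermatocyte markers, the summed level of the 10 genes was 5.37 and 6.08 in WT against 4.93 and 4.67 in KO. Divided by the summed Sertoli cell markers it was 2.35 and 2.30 in WT against 2.46 and 2.51 in KO. Neither of these ratios overlapped between genotypes, and they lay in opposite directions. Most of the Sertoli cell sum was a single gene, Clu, at 1128 and 1154 CPM in WT against 1182 and 998 CPM in KO. The Sertoli cell ratio therefore mainly reflects Clu and not the list as a whole. Divided by the round spermatid markers it was 1.72 and 1.75 in WT against 1.91 and 1.49 in KO, and by the elongating spermatid markers 0.0880 and 0.0881 against 0.113 and 0.0701, both with overlap. None of the 4 ratios was tested. In bulk tissue fewer cells of a type and less RNA per cell cannot be told apart.

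**Figure D4:**
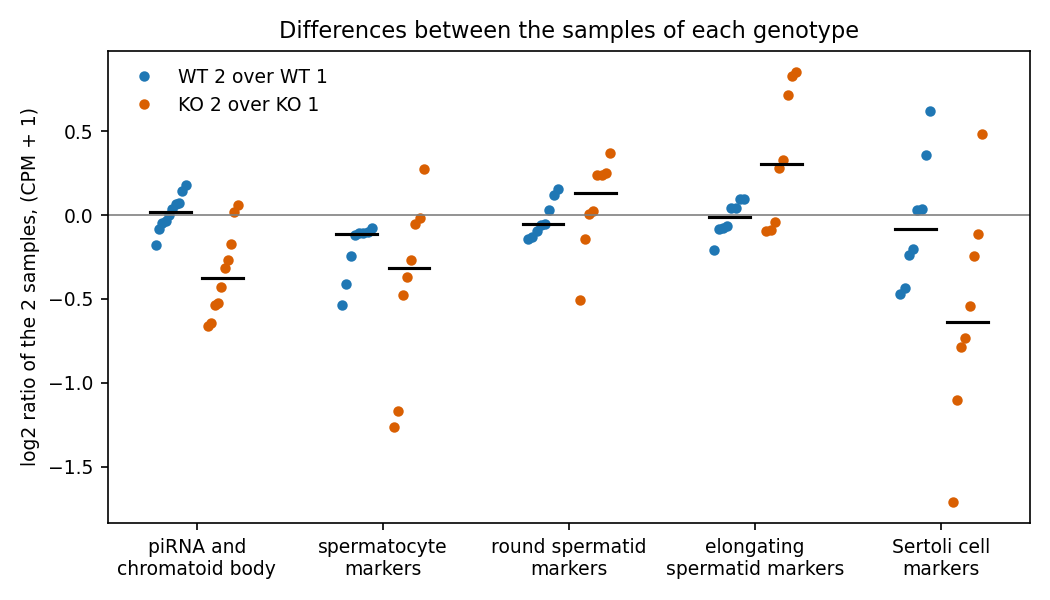
Each point is a gene, and the vertical axis is the log2 ratio of the second to the first sample of a genotype, on the CPM + 1 scale (WT blue, Tas1r3 KO orange; black lines are medians). For the piRNA and chromatoid body genes the KO median is -0.37 and the WT median 0.02, and the KO medians of the elongating spermatid and Sertoli cell markers are 0.30 and -0.64.

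The tables gave 20 RefSeq transcript rows for the 10 genes, 1 each for Piwil1, Piwil2, Mael, Mov10l1 and Tdrd9 and several for the other 5. Rows of a gene share most of their sequence, and the authors' counting divided the reads between them, so their shares are less certain than the sums. For Ddx4 the shorter row NM_010029 of 2771 bases held 20.8% and 16.9% of the gene's CPM in WT and 9.69% and 5.52% in KO. It stood at 64.9 and 46.7 CPM in WT against 34.7 and 15.9 CPM in KO, while NM_001145885 of 2849 bases was at 247 and 229 CPM in WT against 323 and 272 CPM in KO. The shares of both Ddx4 rows thus did not overlap between genotypes. The Tdrd5 row NM_001134741 held 59.7% and 65.1% in WT and 19.1% and 52.7% in KO. For Tdrd7, NM_001290475, which starts upstream of the other rows, held 14.5% and 10.2% in WT and 27.1% and 16.8% in KO. In all, 6 of 15 rows of these genes had shares without overlap between genotypes, or 40.0%, against 34.7% of 4833 rows over all genes with several rows and at least the level of the lowest of the 10 in every sample. The count of such rows is therefore near the background. For Tdrd1, NM_001002241 held 1.69%, 1.18% and 1.51% in WT samples 1 and 2 and KO sample 1 and 29.3% in KO sample 2, where NM_031387 held 7.41% against 31.3% to 49.1% in the others. The 4 Tdrd6 rows kept one order at the top in every sample, with NM_001161366 at 44.7% to 54.0% and NM_001161367 at 31.3% to 37.8%.

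**Figure D5:**
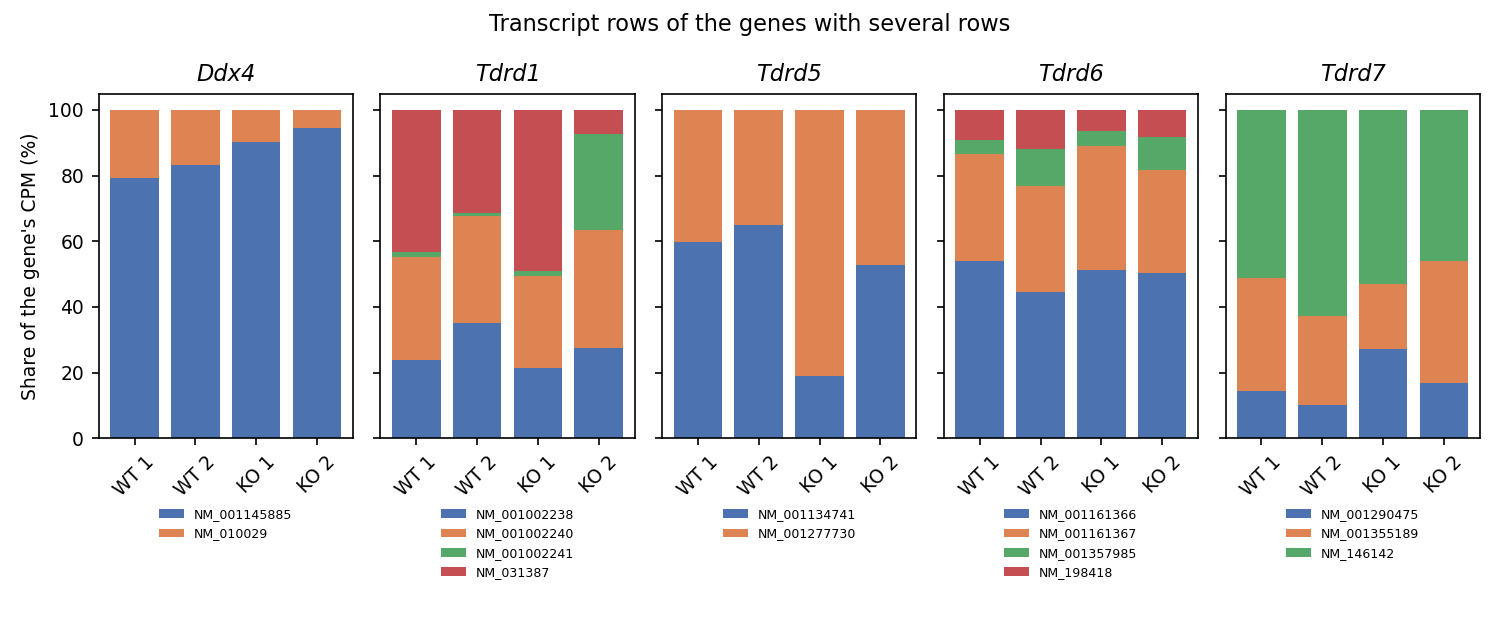
Bars show for each sample the share (%) of a gene's CPM held by each of its RefSeq transcript rows, for the 5 genes with several rows. The upper part of the Ddx4 bars is 20.8% and 16.9% in WT and 9.69% and 5.52% in KO, and KO sample 2 stands apart in Tdrd1.

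Factors that act on transcription of the pathway were measured in the same samples. Mybl1 was at 40.4 and 36.3 CPM in WT against 44.1 and 45.2 CPM in KO (log2 fold change 0.21, SE 0.20), without overlap and short of the test. Tcfl5, a helix-loop-helix factor of spermatocytes, was at 490 and 424 CPM in WT against 437 and 441 CPM in KO, within the WT range. Btbd18, needed in mouse for transcription through pachytene piRNA loci, was at 7.71 and 4.44 CPM in WT against 8.01 and 8.52 CPM in KO, which together are about 21 and 11 reads (ratio after scaling for depth 1.37, exact 95% interval 0.597 to 2.98). None of the 3 passed over all genes in limma, and none had an unadjusted p under 0.05.

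Of 15 other genes of piRNA biogenesis, 6 were higher and 9 lower in KO (median log2 fold change -0.04), and 0 passed in limma or with precision weights. Their sum was 857.5 and 857.4 CPM in WT against 823 and 826 CPM in KO, lower in both KO samples, and was not tested. Gtsf1 alone was lower by more than the sum was. Its WT and KO means were 235.9 and 196.7 CPM, beside 857.4 and 824.5 CPM for the sum. The sum therefore shows no shared lowering of these genes. At an unadjusted p under 0.05 there was 1 of 15, where 4.69% of all tested genes had one. This was Gpat2, a mitochondrial acyltransferase relative needed for piRNAs, at 57.4 and 51.4 CPM in WT against 68.1 and 81.9 CPM in KO (log2 fold change 0.45, SE 0.19, limma adjusted p = 0.942). Without KO sample 1 it was called higher (0.58, limma adjusted p = 0.0376), but not without KO sample 2 (0.32, adjusted p = 0.399) or without either WT sample (adjusted p = 1.0). Henmt1, which methylates the ends of piRNAs, was at 35.8 and 32.6 CPM in WT against 25.4 and 20.1 CPM in KO, without overlap (log2 fold change -0.58, SE 0.25, limma adjusted p = 0.942). Pnldc1, the trimming exonuclease, had about 23 reads over the WT samples and 3 over the KO samples, a ratio after scaling for depth of 0.342 (exact 95% interval 0.0657 to 1.13, counting error only). Gtsf1, a zinc finger cofactor of PIWI proteins and the highest of the list per kb, was at 234 and 238 CPM in WT against 199 and 194 CPM in KO, without overlap (log2 fold change -0.26, SE 0.13, limma adjusted p = 0.942). Without overlap, 1 gene of the list was higher and 4 were lower, where 15% and 19.4% of all tested genes were.

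Among 13 other components of the chromatoid body, 7 were higher and 6 lower (median log2 fold change 0.02) and 0 passed in limma or with precision weights. Stk31, a Tudor domain protein with a kinase-like part, had the smallest p of the list, at 43.0 and 41.0 CPM in WT against 62.6 and 68.6 CPM in KO (log2 fold change 0.63, SE 0.19, limma adjusted p = 0.942). It was the 1 gene of the 13 with an unadjusted limma p under 0.05 (0.0103), where 4.69% of all tested genes had one. The log2 fold change was 0.69 and 0.56 without KO samples 1 and 2, and 0.66 and 0.60 without WT samples 1 and 2. Kif17, a kinesin that moves RNA-binding proteins, was at 617 and 674 CPM in WT against 600 and 520 CPM in KO. Ybx2, a Y-box protein that stores spermatid mRNAs, was at 1980 and 1979 CPM in WT against 1740 and 1778 CPM in KO, without overlap (log2 fold change -0.17, SE 0.11). Of the 13 genes, 2 were higher without overlap and 3 lower, where 15% and 19.4% of all tested genes were.

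Genes of piRNA-directed silencing in the nucleus, a process of fetal germ cells, were low or not measured. Piwil4 and Spocd1 have no values here. Tex15, the highest of the list per kb, was at 45.9 and 57.0 CPM in WT against 68.4 and 48.5 CPM in KO. The DNA methyltransferase gene Dnmt3a was at 20.9 and 19.4 CPM in WT against 13.4 and 16.3 CPM in KO, without overlap (log2 fold change -0.42, SE 0.30). Its cofactor gene Dnmt3l was at 8.93 and 4.87 CPM in WT against 9.71 and 0.0096 CPM in KO, so the KO samples lay on either side of WT. KO sample 2 held under 1 read, and 3 reads there would be 5.02 CPM, above WT sample 2. Over about 24 and 7 reads in WT and KO the ratio after scaling for depth was 0.764 (exact 95% interval 0.278 to 1.83). The call without KO sample 1 (-2.92, limma adjusted p = 0.000261) rested on that 1 library, and without KO sample 2 the value was 0.49 (limma adjusted p = 0.647). Morc1 had about 21 and 4 reads in WT and KO, a ratio after scaling for depth of 0.499 (exact 95% interval 0.125 to 1.48). With all samples 0 of the 4 tested genes passed in limma, and 0 had an unadjusted p under 0.05.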

How the data were processed

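Testis RNA of 2 WT and 2 Tas1r3 KO samples was analysed, grouped by their titles. Per the labels' protocols, total RNA was made into Ion Torrent libraries. STAR, Partek and the build mm39 are named in the submitters' processing notes, without versions. What the authors deposited is CPM for each RefSeq transcript, adding up to 1000000 in a column, and the table of the series held the same values as the 4 sample tables. There were 29342 transcripts of 17924 symbols, and transcripts were summed per symbol. No gene of the tables overlapped a member.

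The step between the commonest low values was taken as 1 read. Within 0.02 reads, 23.1%, 26.2%, 47.6% and 47.5% of gene values of 0.5 reads or more were whole (WT before KO, sample 1 before sample 2). The authors' counting thus split reads over transcripts, and read numbers are estimates. The 95% Poisson intervals, and the limit of 3 reads for a value of 0, hold counting error alone.

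A gene entered the test if 2 samples or more reached 1 CPM. The test was limma (version 3.58.1, R 4.3.3), fitted to log2 of CPM plus 1 with the variance trended on the mean, and adjusted by Benjamini-Hochberg at 0.05 over all tested genes. Fold changes on this scale understate those of low genes. An exact permutation test of 2 against 2 samples cannot go below a two-sided p of 0.333 and was not used. Alternatives covered the pseudocount, filter, scaling, trend, block, weights and leaving out each sample. The members, lists and tests were chosen with earlier results of these data known. Named genes were the members, Tas1r3 and, of each further list, the 3 genes with the smallest p and the highest per kb. Crisp1, Rnase10, Clu and the transcripts and promoters described were picked after their values or letters were seen. Python 3.11.15, pandas 2.3.3, numpy 2.4.6 and matplotlib 3.10.9 were also used.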

Additional observations from a re-analysis of the deposited data

How the results depend on the processing

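Other than by leaving out a sample, 9 alternatives were run (pseudocounts of 0.1 and 5, no filter, a 5 CPM filter, TMM rescaling, quantiles made equal, variance not trended, a replicate block, and precision weights). In these, 0 of 10 members passed, the smallest limma adjusted p was 0.896, fold changes moved by at most 0.03 on the log2 scale, and 1 sign differed (Piwil2 with precision weights, 0.00022). The summed level of the members was 117 CPM higher in KO, 124 after rescaling and 129 after quantile normalization. With a sample left out it ranged from -158 (without KO sample 1) to 392 (without KO sample 2). Members called then ranged from 0 to 1 higher and from 0 to 1 lower, and signs differed for Piwil1, Ddx4, Tdrd1 and Tdrd7 without KO sample 1 and for Piwil2, Tdrd5, Tdrd6 and Mov10l1 without KO sample 2. With 1 KO sample left, the spread came from the WT samples and the lone sample is assumed to vary like them.

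Over all genes 0 were called higher and 1 lower. Lower calls were 0 with a pseudocount of 0.1 and 0 without a mean trend, and higher calls were 4 with precision weights. Leaving out a sample gave 1 to 434 higher and 3 to 1029 lower. The replicate number as a block gave 6 higher and 17 lower. The labels give no pairing, and deviations of same-numbered samples correlated at -0.0054 across genes. With 2 samples per genotype this correlation cannot settle whether same-numbered samples share more than a number. The cause of these shifts was not tested. Depth limits the KO values most, since 1 read is worth 1.34 and 1.67 CPM there.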

Other observations

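Genes related to the members but with somatic or general roles were also measured. Of 8 relatives, 5 were higher and 3 lower in KO (median log2 fold change 0.02) and 0 passed in limma or with precision weights. Tdrd3, a Tudor domain protein of general RNA metabolism, was at 32.9 and 27.2 CPM in WT against 44.1 and 51.8 CPM in KO (log2 fold change 0.66, SE 0.23, limma adjusted p = 0.942, unadjusted p = 0.0198). Without KO sample 1 it was called higher (0.77, limma adjusted p = 0.0239), but not without KO sample 2 (0.54, adjusted p = 0.208) or without either WT sample (adjusted p = 1.0). Akap1, an anchoring protein of mitochondria with a Tudor domain, was at 897 and 1023 CPM in WT against 887 and 815 CPM in KO. Mov10, the general relative of Mov10l1, was at 17.05 and 19.8 CPM in WT against 21.0 and 9.37 CPM in KO, with KO sample 2 the lowest, as for Mov10l1.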
